A study of Mus musculus with 30 samples.

Results

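Otx2, Pou3f1, Sox3, Zic2 and Igfbp2 are 5 genes known from the formative epiblast, and they were followed here across the 10 groups of an embryonic stem cell experiment. Each was read from the array row whose platform symbol is that gene alone, the row of highest mean where a gene has several. Each of the 5 had 1 such row, and they are 5 of the 19935 genes measured this way. The cells were mouse embryonic stem cells of 1 clone, AINV15_Nanog_Rescue Clone (NgR in the labels), derived from rtTA-expressing Aniv15 cells and kept on primary mouse embryonic fibroblasts. In this clone Nanog was maintained by doxycycline, given at 1 ug/ml before withdrawal. The groups were day 0 with doxycycline, and days 1, 3 and 5 after withdrawal. At each of these days 2 further sets went on for 12 h, with a doxycycline pulse (called pulse here) or without it (called control). Every group held 3 arrays, 30 in all, and all groups share the clone, the feeder cells and the previous growth in doxycycline. No cells kept in doxycycline over the days were analysed here, so withdrawal and time in culture cannot be told apart. No cells without the inducible Nanog were analysed here either, so effects of doxycycline and of Nanog cannot be told apart.

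Embryonic stem cells in the naive state correspond to the epiblast before implantation. As they leave it, they pass through a formative state, in which they become competent to form the germ layers and germ cells, before they are primed for differentiation. Otx2 is a homeobox factor that drives this exit and moves to new enhancers together with Pou5f1. Pou3f1 (also called Oct6) is a POU factor that comes up at the same stage. Sox3 is a close relative of Sox2, and Zic2 is a zinc finger factor that binds enhancers in stem cells. Igfbp2 is a secreted protein that binds insulin-like growth factors outside the cell. The factors other than Igfbp2 are also expressed in early neural tissue.

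The 5 genes did not move together. Otx2 rose within a day of withdrawal, was highest on day 3 and was lowered by the pulse on days 1 and 5. Igfbp2 rose more slowly, called on days 3 and 5, and was lowered by the pulse on days 1 and 5 as well. Neither was called in the day 3 pulse, and the day 5 pulse call of Igfbp2 held in 8 of 16 alternative fits. Zic2 fell from day 3 on and was not called in any pulse. Pou3f1 rose slightly on day 1, and Sox3 was not called in any comparison. Of the 5, then, Otx2 and Igfbp2 rose after withdrawal, and Zic2 went the opposite way. Pou3f1 rose within a small range, called on day 1 alone of the withdrawal days and in 13 of 16 alternative fits.

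Values are log2 signals, and changes are log2 differences of 2 group means of 3 arrays each, given ± the standard error. The test was limma, with Benjamini-Hochberg adjustment across 23385 clusters (sets of probes for 1 transcription unit) that have a symbol, and a gene was called under 0.05. Since no label tells whether the 3 arrays of a group came from different cultures, the tests speak of array-to-array spread alone, which may be technical. RNA was taken from whole cultures, so fewer cells with a transcript and less of it in each cell cannot be told apart. Nanog checked the labels. It lay between 10.70 and 11.11 on the 12 arrays with doxycycline and between 9.64 and 10.57 on the 18 without it. Signals of Pou5f1 and Sox2, which define embryonic stem cells, were 12.35 and 12.11 at day 0, against 11.05 and 11.62 at day 5 of withdrawal. The 4 arrays with the widest spread of values were all controls, replicate 3 of day 1, replicate 2 of day 3 and replicates 2 and 3 of day 5. Their interquartile ranges were 2.76 to 2.94, against 2.71 or less on the other 26. Pulse values of the 5 genes are therefore also given without these arrays, which leaves the day 5 control with 1 array, assumed to vary like the other groups. Pulse values of other genes are given with all arrays only.

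Otx2 and Igfbp2 were the 2 genes called in the pulse, and RefSeq promoter sequence was matched for these 2 of the 5 genes. Shown are the 250 bases before the outermost annotated start of each on GRCm38.p6, to let their base composition be compared. That of Otx2 is chr14:48667645-48667894, minus strand, and that of Igfbp2 chr1:72824230-72824479, plus strand. Both run 5′ to 3′, and CG pairs are in capitals.
Otx2: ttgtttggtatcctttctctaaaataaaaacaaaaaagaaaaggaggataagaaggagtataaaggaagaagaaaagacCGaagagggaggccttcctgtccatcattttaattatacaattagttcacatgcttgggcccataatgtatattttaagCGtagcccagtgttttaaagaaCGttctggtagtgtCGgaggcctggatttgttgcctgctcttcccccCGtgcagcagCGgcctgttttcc
Igfbp2: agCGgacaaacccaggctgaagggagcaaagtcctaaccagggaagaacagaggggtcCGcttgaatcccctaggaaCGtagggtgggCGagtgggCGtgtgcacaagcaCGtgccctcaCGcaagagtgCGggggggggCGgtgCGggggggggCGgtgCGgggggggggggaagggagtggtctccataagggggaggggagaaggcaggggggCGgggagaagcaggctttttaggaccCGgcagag
The Otx2 stretch held 42% G and C and 6 CG pairs, and that of Igfbp2 67.2% and 14. Over 32851 such stretches before RefSeq starts, the medians were 52.4% and 6. Neither stretch held TAATCC (the core bound by Otx-type homeodomains), ATGCAAAT (the octamer bound by POU factors) or ACAATG (a core bound by Sox factors) on either strand. The shares of all stretches with a match were 6.25%, 1.6% and 10.7%. Of the other 3 annotated starts of Otx2, 1 had a TAATCC match on the opposite strand, beginning 211 bases before it, and the other start of Igfbp2 had none of the 3. These motifs were chosen after the data were seen, and binding was not measured here.

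Otx2 (cluster 10419356) had its lowest values at day 0, where its 3 arrays read 8.14, 8.36 and 8.01. At day 1 of withdrawal they read 9.79, 9.76 and 9.72, at day 3 10.12, 10.14 and 10.19, and at day 5 9.57, 9.48 and 9.34. No array of a withdrawal day overlapped day 0, and none of the 3 days overlapped another. Otx2 rose by 1.59 ± 0.11 at day 1, a 3.01-fold change and the highest of all 23385 clusters at that time (adjusted p = 2.38e-10). It stood 1.98 ± 0.11 above day 0 at day 3 (adjusted p = 3.32e-13) and 1.29 ± 0.11 at day 5 (adjusted p = 1.93e-10). Its place in the order of changes was 11 at day 3 and 230 at day 5. The step from day 1 to day 3 was a rise of 0.39 ± 0.11 (adjusted p = 0.00877), and the next step, to day 5, was −0.69 ± 0.11 (adjusted p = 6.17e-05).

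**Figure D1:**
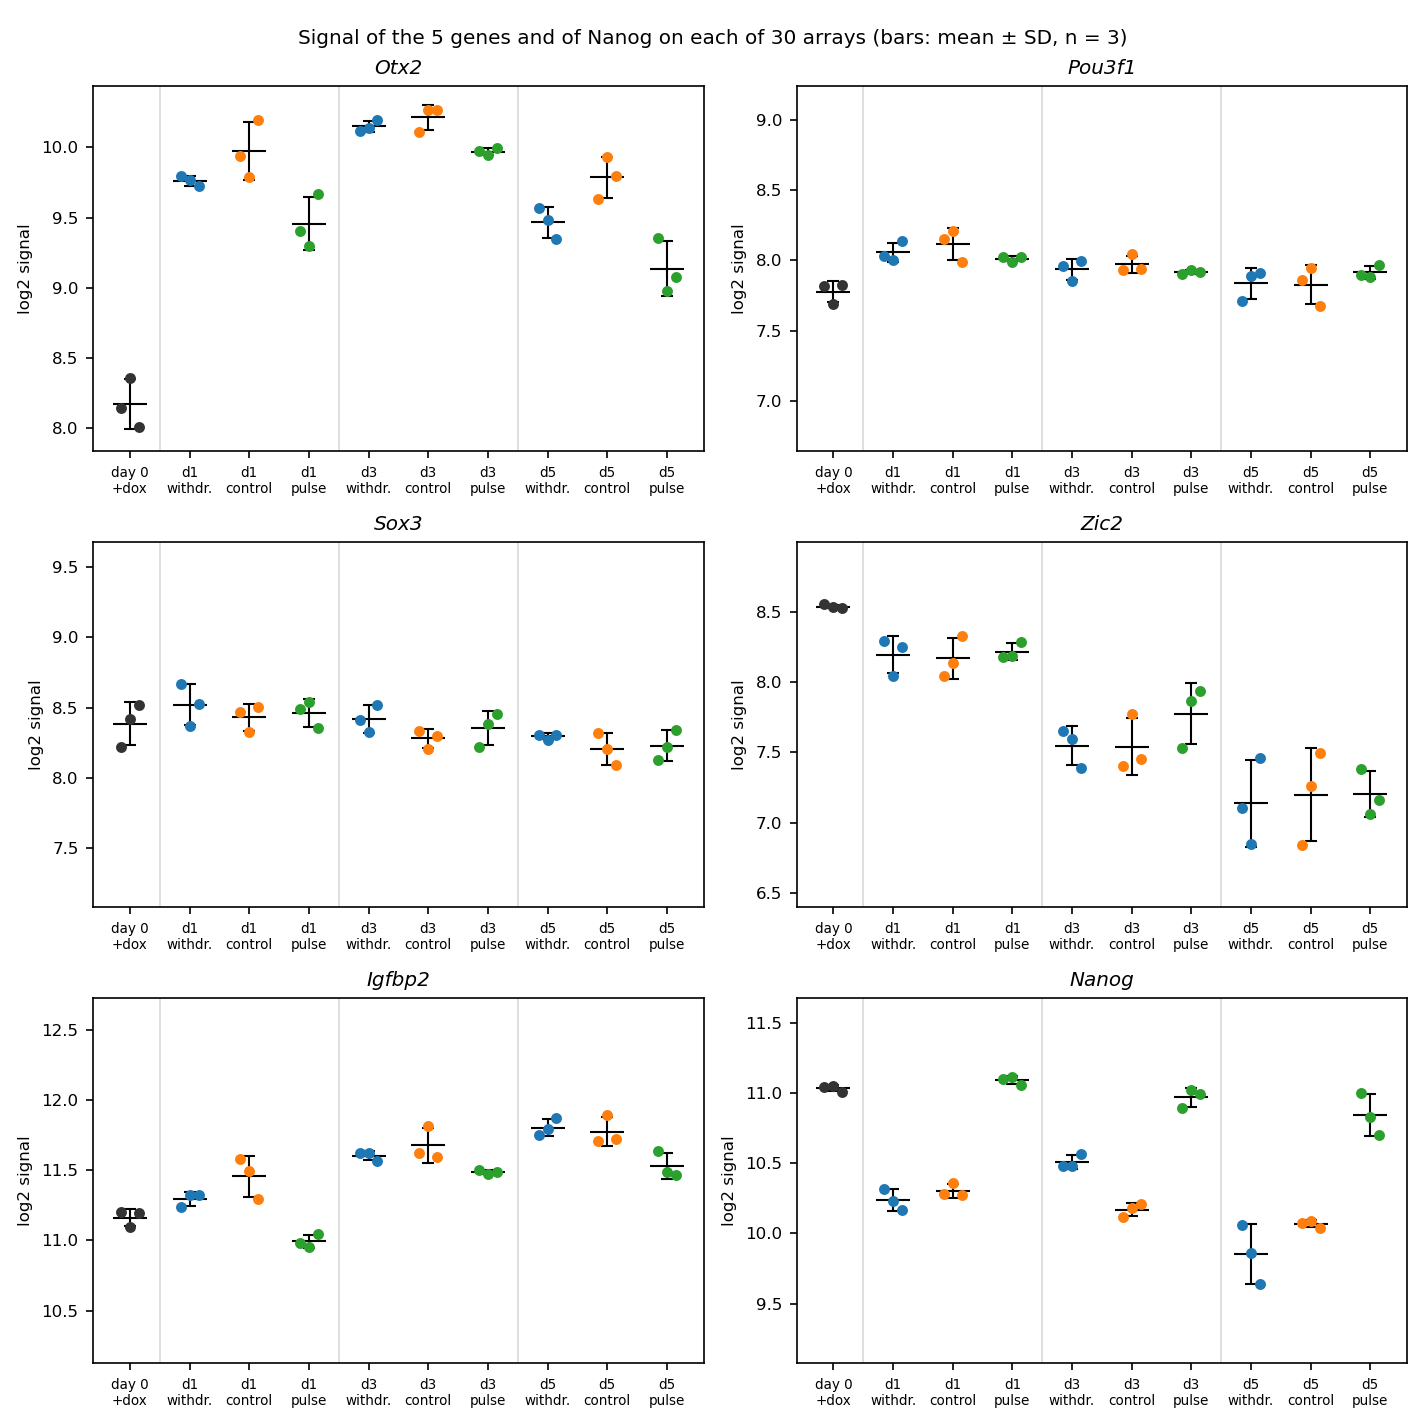
Log2 signal (vertical axis) of the 5 genes and of Nanog on each of the 30 arrays by group. Points are arrays, bars are the group mean and SD of 3 arrays, colours mark day 0, withdrawal, control and pulse, and every panel spans 2.6 log2 units. Otx2 runs from 8.01 to 10.27 and Zic2 from 6.84 to 8.55, while Pou3f1 stays within 7.67 to 8.21 and Sox3 within 8.09 to 8.67.

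Over the 12 h after each withdrawal day, Otx2 without doxycycline stood at 9.94, 9.79 and 10.19 on day 1, 10.11, 10.26 and 10.27 on day 3, and 9.63, 9.93 and 9.79 on day 5. With the pulse it stood at 9.41, 9.30 and 9.67, at 9.97, 9.94 and 9.99, and at 9.35, 8.98 and 9.08. On each of the 3 days every pulsed array lay below every control. How many of all clusters were apart in this way was not counted. The pulse lowered Otx2 on day 1 (−0.51 ± 0.11, adjusted p = 0.00706) and on day 5 (−0.65 ± 0.11, adjusted p = 0.000756). The value on day 3 was −0.24 ± 0.11 (95% interval −0.47 to −0.02, adjusted p = 0.299), and it was not called.

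The pulse effects on Otx2 were not called as different between days. Day 5 minus day 3 was −0.40 ± 0.15 (adjusted p = 0.185), and day 3 minus day 1 was 0.27 ± 0.15 (adjusted p = 0.81). Of 22 alternatives for day 5 minus day 3, 1 called it, array weights (−0.52, adjusted p = 0.00441), which called 7199 of 23385 clusters there. Averaged over the 3 days, a contrast added after the data were seen, the effect was −0.47 ± 0.06 (adjusted p = 3.1e-05), in a comparison that called 6.8% of clusters higher and 14% lower. This average was called under each of 28 alternatives, from −0.51 to −0.34, with adjusted p between 2.58e-07 and 0.00531. The day 5 effect was −0.50 and not called without the 4 widest arrays, a comparison of 3 pulsed arrays with 1 control array, with an adjusted p of 0.172, the highest of 16 alternatives (the lowest was 1.6e-05). The day 3 value was −0.22 without the widest arrays. The day 1 effect was −0.40 and still called without them (adjusted p = 0.0327), and −0.44 without replicate 2 of the day 1 pulse, where the call was lost, with adjusted p = 0.0695 in a range of 0.000498 to 0.11 over 16 alternatives.

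Group means of Nanog after the pulse were 11.09, 10.97 and 10.84 on days 1, 3 and 5, against 11.03 at day 0, and none of these differences was called. Otx2 in pulsed cells stood 1.29 ± 0.11 above day 0 on day 1 (adjusted p = 2.92e-08), 1.80 ± 0.11 on day 3 (adjusted p = 2.52e-12) and 0.97 ± 0.11 on day 5 (adjusted p = 4.67e-08). These comparisons share the day 0 arrays with those of withdrawal. Ordered by mean, the 10 groups ran from the day 3 control (10.21 ± 0.09, SD, n = 3) down to the day 5 pulse (9.14 ± 0.19) and day 0 (8.17 ± 0.18). Between neighbours in that order, arrays were apart at 3 of 9 places, the largest gap being that of 0.97 above day 0.

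Pou3f1 (cluster 10507905) varied little. Its arrays read 7.82, 7.69 and 7.82 at day 0, 8.03, 8.01 and 8.13 at day 1, 7.96, 7.85 and 7.99 at day 3, and 7.71, 7.89 and 7.91 at day 5 of withdrawal. Day 1 and day 3 lay above day 0 without overlap, and day 5 overlapped it. Pou3f1 rose by 0.28 ± 0.07 at day 1, a 1.21-fold change (adjusted p = 0.0175). The values at day 3 and day 5 were 0.16 (adjusted p = 0.0988) and 0.06 (adjusted p = 0.551). The day 1 call was lost without replicate 2 of day 0 (0.24, adjusted p = 0.0933) and without replicate 3 of day 1 withdrawal (0.24, adjusted p = 0.111), and in the fit of the compared groups alone (0.28, adjusted p = 0.0528). Over its 16 alternatives the adjusted p ran from 0.00094 to 0.111.

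With the pulse, Pou3f1 read 8.02, 7.99 and 8.02 on day 1, 7.90, 7.93 and 7.92 on day 3, and 7.89, 7.88 and 7.97 on day 5. The controls read 8.15, 8.21 and 7.99, then 7.93, 8.04 and 7.94, then 7.86, 7.95 and 7.67, and overlapped the pulsed arrays on each day. The pulse changes were −0.10 (95% interval −0.25 to 0.05), −0.05 (−0.20 to 0.10) and 0.09 (−0.06 to 0.24), and none was called (adjusted p = 0.525, 0.778 and 0.396). Without the 4 widest arrays they were −0.17, −0.02 and 0.06, again with no call. Pulsed cells of day 1 stood 0.24 ± 0.07 above day 0 (adjusted p = 0.0364), and this call was lost when any one of the 6 arrays was left out (adjusted p from 0.0611 to 0.142). No 2 neighbours in its order of groups were apart.

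Sox3 (cluster 10604837) was not called in any of the 17 comparisons. Its arrays read 8.22, 8.42 and 8.52 at day 0, 8.67, 8.37 and 8.52 at day 1, 8.41, 8.32 and 8.52 at day 3, and 8.31, 8.27 and 8.31 at day 5 of withdrawal. All 3 days overlapped day 0. The changes from day 0 were 0.14 (95% interval −0.05 to 0.32), 0.03 (−0.15 to 0.22) and −0.09 (−0.27 to 0.09), with adjusted p = 0.488, 0.823 and 0.45. The intervals reach a rise of 0.32 at day 1 and −0.27 at day 5. With the pulse the changes were 0.03, 0.07 and 0.02 (adjusted p = 0.904, 0.743 and 0.86), and without the 4 widest arrays 0.07, 0.04 and −0.09, with no call. Group means ran from 8.52 at day 1 of withdrawal to 8.20 in the day 5 control. Its value of largest size was that of pulsed day 5 cells against day 0, −0.16 ± 0.09 (adjusted p = 0.175). Of 16 alternatives 2 called it, median centring and the omission of replicate 1 of day 0, in a range of adjusted p from 0.0485 to 0.533.

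Zic2 (cluster 10417176) was highest at day 0, where its arrays read 8.55, 8.53 and 8.53. They read 8.29, 8.05 and 8.25 at day 1, 7.65, 7.60 and 7.39 at day 3, and 7.10, 6.85 and 7.46 at day 5 of withdrawal. All 9 withdrawal arrays lay below day 0, and days 3 and 5 overlapped each other. The day 1 value was −0.34 ± 0.15 (adjusted p = 0.202). Zic2 fell by 0.99 ± 0.15 at day 3 (adjusted p = 5.58e-06) and by 1.40 ± 0.15 at day 5, a 2.64-fold change (adjusted p = 1.01e-08). The step between days 1 and 3 was −0.65 ± 0.15 (adjusted p = 0.00151). The step from day 3 to day 5 was −0.41 ± 0.15 and was not called (adjusted p = 0.0688), but it was −0.57 without replicate 3 of day 5 withdrawal (adjusted p = 0.0141, in a range of 0.000491 to 0.387 over 16 alternatives).

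The pulse left no called change in Zic2. Pulsed arrays read 8.18, 8.18 and 8.29 on day 1, 7.53, 7.86 and 7.93 on day 3, and 7.38, 7.06 and 7.16 on day 5. The controls read 8.04, 8.13 and 8.33, then 7.40, 7.77 and 7.45, then 6.84, 7.26 and 7.49, and the 2 overlapped on each day. The changes were 0.05 (95% interval −0.25 to 0.35), 0.23 (−0.07 to 0.53) and 0.00 (−0.30 to 0.30), with adjusted p = 0.909, 0.475 and 0.986. Without the 4 widest arrays they were 0.13, 0.35 and 0.36, none called, the last against 1 control array. The day 3 value was 0.36 and called with array weights (adjusted p = 0.034, the lowest of 16 alternatives, up to 0.763). Against day 0, Zic2 in pulsed cells was at −0.76 ± 0.15 on day 3 (adjusted p = 0.000244) and −1.34 ± 0.15 on day 5 (adjusted p = 2.94e-08). The average over the 3 days was 0.10 ± 0.08 (adjusted p = 0.403), but with the interquartile range of each array as a covariate it was 0.29 and called (adjusted p = 0.0278, the lowest of 28 alternatives, up to 0.728). Replicates of Zic2 spread most at day 5, with an SD of 0.31 in the withdrawal group and 0.33 in the control.

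The arrays of Igfbp2 (cluster 10347277) read 11.20, 11.09 and 11.20 at day 0, 11.24, 11.33 and 11.33 at day 1, 11.62, 11.62 and 11.57 at day 3, and 11.75, 11.79 and 11.87 at day 5 of withdrawal. These 4 groups did not overlap. The day 1 value was 0.13 ± 0.07 (adjusted p = 0.37). Igfbp2 rose by 0.44 ± 0.07 at day 3 (adjusted p = 3.08e-05) and by 0.64 ± 0.07 at day 5, a 1.56-fold change (adjusted p = 5.8e-08). From day 1 to day 3 it rose by 0.31 ± 0.07 (adjusted p = 0.00277), and the next step was 0.20 ± 0.07 (adjusted p = 0.0838, called in 5 of 16 alternatives).

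In the controls Igfbp2 read 11.58, 11.49 and 11.29 on day 1, 11.62, 11.82 and 11.59 on day 3, and 11.71, 11.89 and 11.72 on day 5. With the pulse it read 10.98, 10.96 and 11.05, then 11.50, 11.47 and 11.49, then 11.63, 11.48 and 11.46. As for Otx2, every pulsed array lay below every control of its day, again not counted over all clusters. The pulse lowered Igfbp2 on day 1 (−0.46 ± 0.07, adjusted p = 0.000588) and on day 5 (−0.25 ± 0.07, adjusted p = 0.0313). The day 3 value was −0.19 ± 0.07 (95% interval −0.34 to −0.04, adjusted p = 0.243), and it was not called.

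The day 1 effect on Igfbp2 was −0.54 and called without the 4 widest arrays, and of 16 alternatives only the fit of the compared groups alone did not call it (adjusted p = 0.0694, the highest; the lowest was 4.47e-07), whereas on day 5, against the 1 control array left, the value became −0.18 (adjusted p = 0.51). On day 3 it was −0.12 without them. The day 5 call was also lost without replicate 2 or 3 of the day 5 control (−0.19 and −0.27) and without replicate 2 or 3 of the day 5 pulse (−0.23 and −0.22). The adjusted p ran from 0.00153 to 0.51 over its 16 alternatives, and 8 of them called it. The average over the 3 days was −0.30 ± 0.04 (adjusted p = 6.33e-05), and it was called under all 28 alternatives. Igfbp2 after the day 1 pulse was the lowest of the 10 groups (10.99 ± 0.05, SD, n = 3), below each array of day 0, at −0.17 ± 0.07 (adjusted p = 0.155). On days 3 and 5 pulsed cells stood 0.32 and 0.36 above day 0 (adjusted p = 0.00145 and 0.000224). The pulse effect on Igfbp2 of day 3 minus that of day 1 was 0.27 ± 0.10 (adjusted p = 0.616). Of 22 alternatives 1 called it, array weights (0.35, adjusted p = 0.00775), which called 1142 of 23385 clusters there.

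**Figure D2:**
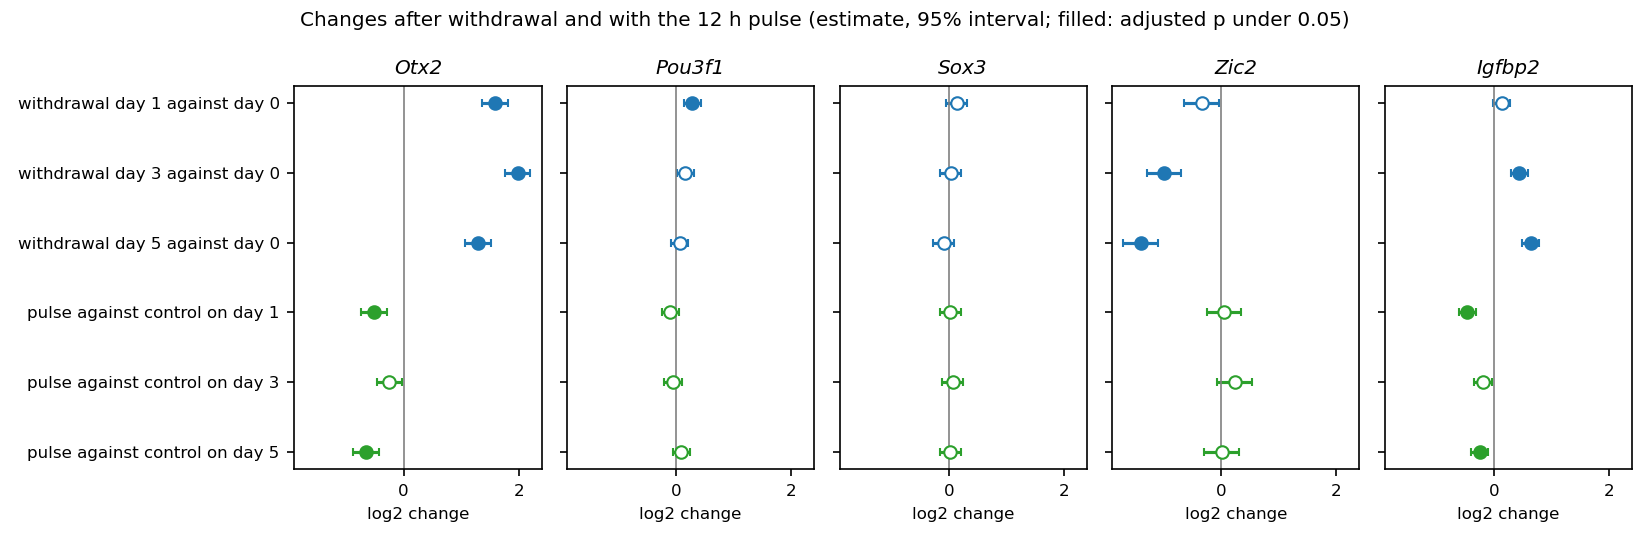
Log2 change (horizontal axis) of each gene at days 1, 3 and 5 of withdrawal against day 0 (blue) and with the 12 h pulse against its control (green). Points are estimates from 3 arrays against 3, bars are 95% intervals, and filled points have an adjusted p under 0.05. Otx2 and Igfbp2 rise with withdrawal and are lowered by the pulse on days 1 and 5, and Zic2 falls to −1.40 with pulse values between 0.00 and 0.23. The day 5 pulse call held in 8 of 16 alternative fits for Igfbp2 and in 14 of 16 for Otx2.

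Counted as a group, 2 of the 5 genes rose and none fell at day 1 of withdrawal, where 3.49% of all clusters were called higher and 3.02% lower. At day 3, 2 rose and 1 fell, against 19.6% and 14.3% of clusters, and at day 5 again 2 and 1, against 23.8% and 18.8%. The median change of the 5 was 0.14, 0.16 and 0.06, against 0.02, 0.02 and −0.01 over all clusters. Between days 1 and 3 the 5 held 2 rises and 1 fall (13.2% higher and 9.77% lower among all clusters). Between days 3 and 5 they held 1 fall (7.59% and 4.75%).

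The pulse lowered 2 of the 5 on day 1, where it called 0.547% of clusters higher and 3.2% lower. It lowered 2 of 5 on day 5 as well (5.13% higher and 7.1% lower). On day 3 limma called none of the 5, where it called 0.00428% of clusters higher and 0.0342% lower. Otx2 and Igfbp2 had an unadjusted p under 0.05 there. How many of all clusters passed that looser cut was not counted. The median pulse change of the 5 was −0.10, −0.05 and 0.00. Against day 0, pulsed cells held 2 rises on day 1 (6.23% of clusters higher and 4.99% lower). They held 2 rises and 1 fall on day 3 (14.4% and 10.9%) and on day 5 (21.4% and 17.8%).

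Controls were also compared with the withdrawal arrays of their day, 12 h earlier, and limma called none of the 5. Of all clusters, 5.02% were called higher and 1.23% lower on day 1. The shares were 1.29% and 0.402% on day 3, and 2.32% and 0.984% on day 5. At an unadjusted p under 0.05 there was 1 of the 5 on day 1, 0 on day 3 and 1 on day 5. How many of all clusters passed that looser cut was not counted. The value of largest size was that of Otx2 on day 5, 0.32 ± 0.11 (adjusted p = 0.102), with all control arrays above those of withdrawal. Differences between the pulse effects of 2 days gave no call in limma among the 5. Of all clusters, 0% were called higher and 0.00855% lower for day 3 minus day 1. The shares were 0.0599% and 0.0513% for day 5 minus day 1, and 0.355% and 0.582% for day 5 minus day 3. At the unadjusted cut, again not counted over all clusters, 1 of the 5 passed for day 3 minus day 1. For day 5 minus day 1 it was 0, and for day 5 minus day 3 it was 1.

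Other genes of the formative and early primed state moved both ways. Of 22 measured, 8 were called higher and 1 lower at day 1, 6 higher and 7 lower at day 3, and 4 higher and 12 lower at day 5, beside the shares of all clusters given above for these days. Their median change was 0.17, −0.02 and −0.27, against 0.02, 0.02 and −0.01 over all clusters. Of the 22, 6 were called higher at day 1 and lower at day 5, Lef1, Fgf15, Dnmt3a, Dnmt3b, Nodal and Tcf15. The share of all clusters with both calls was not counted. Lef1, a Wnt pathway factor, stood at 0.82 ± 0.08 at day 1 and −0.24 ± 0.08 at day 5, the growth factor Fgf15 at 0.79 ± 0.09 and −1.10 ± 0.09, and the DNA methyltransferase Dnmt3a at 0.60 ± 0.08 and −1.09 ± 0.08. Fgf5, the usual marker of the primed epiblast, was called on day 3 (0.87 ± 0.11) and not on days 1 and 5 (0.19 and 0.07). Like Otx2, Sox11, a SoxC factor, was called higher on all 3 days, at 0.45, 0.62 and 0.64. In the pulse 3 of the 22 were lower and none higher on day 1, where 3.2% of all clusters were lower and 0.547% higher. On day 3, 1 was lower and none higher (0.0342% and 0.00428% of all clusters). On day 5, 1 was higher and none lower (5.13% and 7.1%). The day 1 calls were the tight junction gene Cldn6 (−0.36 ± 0.08), Nodal, a ligand of the epiblast (−0.35 ± 0.09), and Tead2 (−0.32 ± 0.07), and that of day 3 was the ligand Wnt8a (−0.57 ± 0.11).

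**Figure D3:**
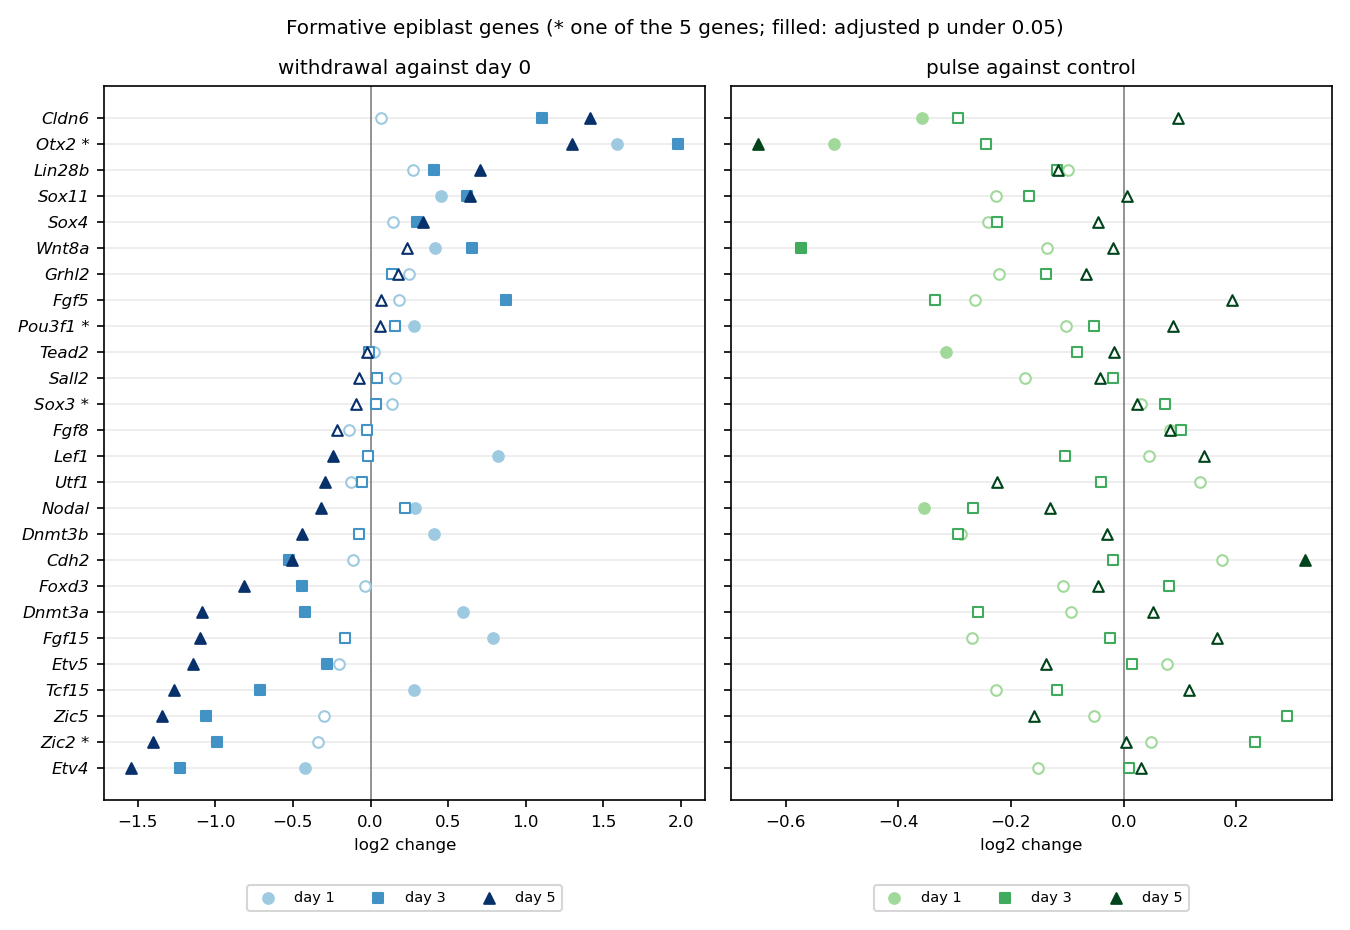
Log2 change (horizontal axis) of 22 other formative epiblast genes and of Otx2, Pou3f1, Sox3 and Zic2 (starred), ordered by their change at day 5. The left panel shows withdrawal against day 0 and the right panel pulse against control, with symbols for days 1, 3 and 5 and filled symbols for an adjusted p under 0.05. Zic5 lies beside Zic2 near the bottom, and Otx2 reaches 1.98 at day 3.

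Zic5, which lies next to Zic2 on chromosome 14 and codes for a related zinc finger factor, gave nearly the same values. It stood at −0.30 ± 0.13 at day 1 (adjusted p = 0.213), and was called lower at day 3 (−1.06 ± 0.13) and day 5 (−1.34 ± 0.13). Its pulse values were −0.05, 0.29 and −0.16, none called. Over the 10 group means, Zic2 and Zic5 had a Pearson r of 0.98. Zic1 and Zic4, other members of the family, were not called in withdrawal or pulse. Of the nearest relatives of Otx2, Otx1 and Crx were not called in withdrawal or pulse. Pou3f2, Pou3f3 and Pou3f4, in the family of Pou3f1, were not called either. Sox2, the relative of Sox3, was at 0.01, 0.03 and −0.49, and the last was called, as was its day 5 pulse value of −0.26.

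Other genes of the insulin-like growth factor axis, to which Igfbp2 belongs, were called mostly from day 3 on. Of 13 measured, 1 was higher and 1 lower at day 1, where 3.49% of all clusters were higher and 3.02% lower. At day 3 it was 8 and 1 (19.6% and 14.3% of all clusters), and at day 5 9 and 1 (23.8% and 18.8%). Their median change was 0.09, 0.28 and 0.72, against 0.02, 0.02 and −0.01 over all clusters. The ligand Igf2 rose by 1.67 ± 0.11 at day 3 and by 3.28 ± 0.11 at day 5. The receptor genes Insr and Igf2r rose by 1.46 ± 0.09 and 1.27 ± 0.09 at day 5. Of the other binding proteins, Igfbp4 and Igfbp6 rose by 1.74 and 1.23, and Igfbp7 fell by 0.74 at day 5. Igfbp5, the neighbour of Igfbp2 on chromosome 1, rose by 0.46 ± 0.08 at day 5 and had no call at days 1 and 3.

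Pulse values in the axis differed among its members. Insr and Igf2r were lower with the pulse on day 1 (−0.45 ± 0.09 and −0.49 ± 0.09), as Igfbp2 was, and Insr also on day 5 (−0.48 ± 0.09). Igfbp5 and Igfbp6 were higher with the day 5 pulse, by 0.33 and 0.26. Igf2 was not called in a pulse (−0.38, −0.45 and 0.17). In all, 2 of the 13 were lower on day 1, where 3.2% of all clusters were. On day 3 limma called none of the 13, and 0.00428% of all clusters higher and 0.0342% lower. At an unadjusted p under 0.05, a looser cut not counted over all clusters, there were 3 on day 3 (Igf2, Igfbp4 and Insr). On day 5, 2 were higher and 1 lower, against 5.13% and 7.1% of all clusters.

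**Figure D4:**
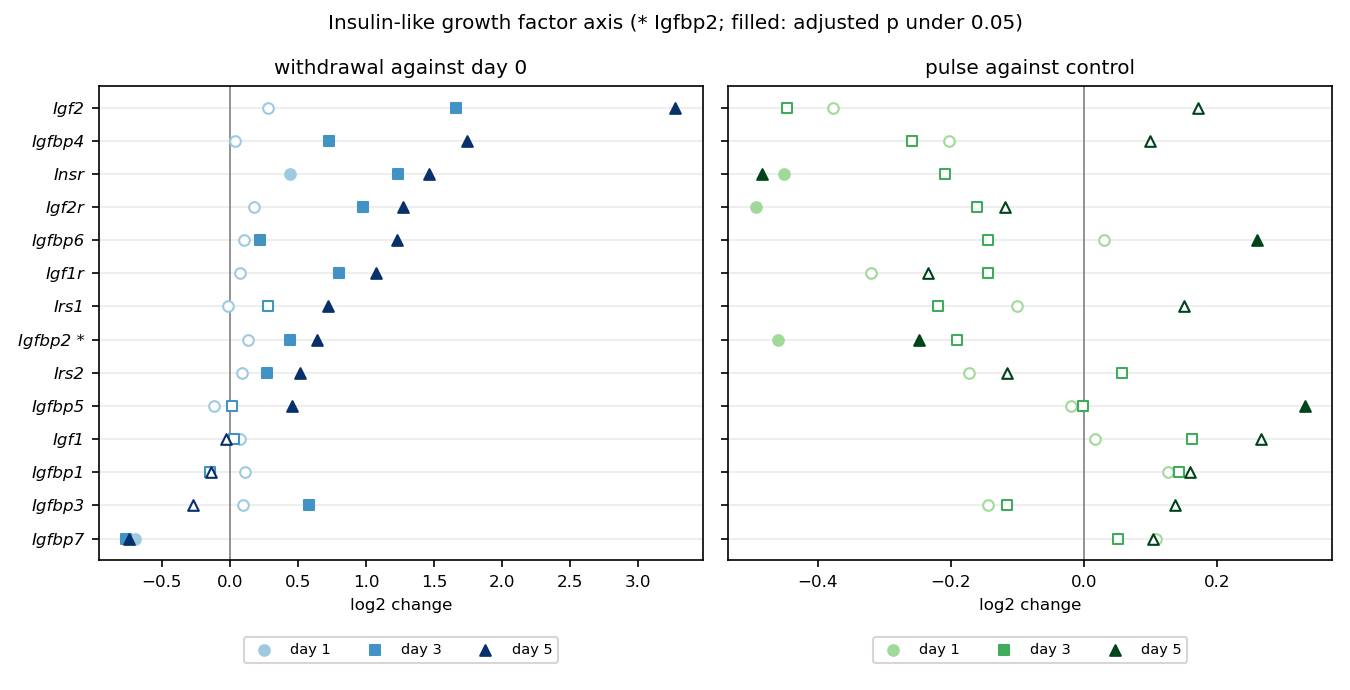
Log2 change (horizontal axis) of 13 genes of the insulin-like growth factor axis and of Igfbp2 (starred), ordered by their change at day 5. The left panel shows withdrawal against day 0 and the right panel pulse against control, with symbols for days 1, 3 and 5 and filled symbols for an adjusted p under 0.05. Igf2 reaches 3.28, and Igfbp2 reaches 0.64 and lies at −0.46 with the day 1 pulse.

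Among the 5 genes themselves, Pearson r over the 10 group means ranged from 0.79 (Sox3 with Zic2) to −0.86 (Zic2 with Igfbp2). Otx2 had 0.55 with Pou3f1, 0.47 with Igfbp2 and −0.35 with Zic2. With Nanog, r was −0.47 for Otx2, −0.74 for Igfbp2 and 0.51 for Zic2. These groups share 1 clone and a common normalization, so r describes these 10 means only. Most like each gene among 6935 clusters with group means spanning at least 0.5 were the following. For Otx2 they were Six4, Fzd7 and Sulf1 (r = 0.96, 0.94 and 0.94). For Zic2 they were Gcsh, Tuba4a and H2az1 (r = 1.00, 1.00 and 0.99), and for Igfbp2 Leng8, Acap2 and Zfp871 (r = 0.98, 0.98 and 0.97). For Pou3f1 they were Bmpr1b, Sytl3 and Tdpoz2 (r = 0.95, 0.94 and 0.94), and for Sox3 Rab33a, Nrcam and Gfra1 (r = 0.95, 0.94 and 0.94), but these 2 genes spanned only 0.34 and 0.32 themselves.

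Markers of other cell types were read in the same way, beside the 23.8% of all clusters called higher and 18.8% lower at day 5. Otx2 is made by visceral endoderm, of whose 15 measured markers 4 were higher and 1 lower at day 5, with a median change of −0.10, and none was called in a pulse. Ttr and Afp were not called, and Gata6 was higher by 0.67 and Dab2 by 1.70. Mean signals of the list ran from 7.14 to 7.17 at day 0 and from 7.24 to 7.32 at day 5. Of 12 trophectoderm genes, 8 were higher at day 5, with list means of 7.75 to 7.78 at day 0 and 8.79 to 8.88 at day 5. Of 14 neuroectoderm genes, 8 were lower and 1 higher at day 5, with Pax6 at −0.81 and Sox1 at −0.28. The mean signal of that list ran from 7.46 to 7.55 at day 0 and from 6.92 to 6.96 at day 5. Of 19 feeder fibroblast genes, 9 were higher and 1 lower at day 5, with list means of 7.43 to 7.50 at day 0 and 7.71 to 7.82 at day 5. In the pulse, trophectoderm and feeder lists each had 1 gene lower on day 1, and 2 higher and 1 lower on day 5. The neuroectoderm list had 2 higher on each of these days. Of all clusters, the pulse called 0.547% higher and 3.2% lower on day 1, and 5.13% and 7.1% on day 5. The part of these cell types in the values of the 5 genes was not tested.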

How the data were processed

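Total RNA of 30 samples was measured, 1 Mouse Gene 1.0 ST array (Affymetrix) each. The values deposited by the authors are log2 signals. According to the submitters' processing notes, RMA and the Expression Console software of Affymetrix produced them. RMA corrects background, equalizes the arrays' distributions and summarizes probes, which can compress changes. Versions, annotation release and genome build are not given in the sources used here. Of 28815 clusters, 21780 had 1 symbol in the platform table, 1605 several and 5430 none. The 23385 with a symbol were tested, in 1 fit of all 30 arrays in limma 3.58.1 (R 4.3.3) with 1 mean per group. The fit was checked on simulated data with independent noise, which could not test the effect of array-wide differences in spread. Arrays have no read depth, and their number limits the precision.

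The 5 genes, the gene lists and the tests were chosen with earlier results of these data known. The average of the 3 pulse effects was added after the data were seen. Named genes were the 5, listed genes, and the 3 clusters most correlated with each over the 10 group means. Alternatives were trend and robust variances, array weights, the compared groups alone, median centring, quantile normalization, a filter on low signal, unnamed clusters, a replicate block, the array interquartile range as a covariate, omission of the 4 widest arrays, and omission of each array. No gene had another cluster to try. Listed genes without a single-symbol cluster were not analysed here.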

Additional observations from a re-analysis of the deposited data

How the results depend on the processing

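Of the 85 changes of the 5 genes (17 comparisons), 24 were called, and 18 of these kept their call under every alternative run for them, among them all calls of Otx2, Zic2 and Igfbp2 against day 0. None of 1450 alternative values reversed a called change, 24 lost a call and 30 gained one. The replicate block, with the replicate number in the fit, left all 90 values on the same side of the threshold, the averages included, and the number of the 5 called was 2 in the day 1 pulse and 2 in the day 5 pulse, as without it. The numbers gave no sign of pairing the arrays. Deviations of same-numbered arrays had a median correlation of −0.01, and 8 of 30 arrays correlated best with their own number. Single correlations ran from −0.72 to 0.57, so a smaller effect of a shared culture could go unseen.

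The count of called genes among the 5 was 1 in the step from day 3 to day 5, and 3 with trend and robust variances, with array weights, with the low-signal filter and without the 4 widest arrays, and 2 with quantile normalization and with the interquartile range as a covariate. In the day 5 pulse it was 2, but 0 when only the compared groups were fitted or the 4 widest arrays were left out, which leaves 1 day 5 control array, and 1 with quantile normalization or the covariate. In the day 1 pulse it was 2, and 0 with the compared groups alone, a fit with fewer arrays. Of all 23385 clusters, the fit of the compared groups called 74 in the day 1 pulse and 0 in the day 5 pulse. The fit of all arrays called 877 and 2860. Array weights gave 1 for the day 3 pulse and for the control against withdrawal on days 1 and 5. They gave 1 for the differences of the day 3 and the day 5 pulse from the day 1 pulse, and 2 for day 5 minus day 3. For pulsed day 1 cells they gave 4 in place of 2. Calls among all 23385 clusters rose with array weights in each of these comparisons too. They went from 9 to 1865 in the day 3 pulse, from 773 to 4628 for the day 5 control and from 219 to 7199 for day 5 minus day 3. Counts that moved by 1 from 2 or 3 were 3 for withdrawal day 1 with array weights, and 4 for the step from day 1 to day 3 (array weights, quantile normalization), withdrawal day 3 (without the widest arrays) and pulsed day 5 cells (median centring). Pulsed day 1 cells gave 1 with median centring, and the control on day 1 gave 1 without the widest arrays. Leaving out 1 array gave 1 to 2 for withdrawal day 1, the step from day 3 to day 5 and the pulses of days 1 and 5, 1 for pulsed day 1 cells, 3 to 4 for pulsed day 5 cells, and 0 to 1 for the day 5 control. The cause of the other moves was not tested.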
